A study of Mus musculus with 8 samples.

Results

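The genes described here make, sense and destroy prostaglandins in the kidney. They were taken as a list of 10 by gene symbol: the cyclooxygenases Ptgs1 and Ptgs2, the prostaglandin E synthases Ptges, Ptges2 and Ptges3, the prostaglandin D synthase Ptgds, the prostaglandin E2 receptors Ptger1, Ptger3 and Ptger4, and Hpgd, the dehydrogenase that inactivates prostaglandins. Probes on the array were assigned to 9 of the 10 through their transcript accessions, and Ptger1 is not analysed here. Ptgs2 did not rise above background, so 8 of the 10 were tested among 13570 named genes, or among 19593 when unnamed transcripts are counted.

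Cyclooxygenases turn arachidonic acid, freed from membranes by phospholipases A2, into prostaglandin H2, from which dedicated synthases form prostaglandins E2, D2, F2 alpha, prostacyclin and thromboxane. In the kidney prostaglandin E2 acts through receptors of the EP family on the thick ascending limb, the collecting duct and the vessels, where the EP3 receptor encoded by Ptger3 lowers cyclic AMP and opposes vasopressin, and the EP4 receptor encoded by Ptger4 raises cyclic AMP. Prostaglandins leave cells through transporters such as Abcc4, are taken up again through Slco2a1 and are then oxidised by Hpgd.

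Kidney RNA of 8 mice aged 8 weeks was hybridised to Agilent 1-colour arrays, 1 array per mouse. NEKO mice (Keap1-/-::Nrf2Flox/Flox::K5-Cre) carry a germline deletion of Keap1, the repressor of Nrf2, and delete Nrf2 in squamous epithelium, where the Keratin 5 promoter drives Cre. The 4 controls were a K1 female (Keap1+/-::Nrf2Flox/Flox), a K1Cre female and 2 K1Cre males (Keap1+/-::Nrf2Flox/Flox::K5-Cre), so that every mouse carried the floxed Nrf2 alleles, every control was heterozygous for Keap1 and no wild-type mouse was included. The 4 NEKO mice were 2 females and 2 males, and all mice were of a mixed 129Sv/J and C57BL/6J background. The study describes hydronephrosis, a dilation of the renal pelvis, in NEKO mice of this age, and the structure of the kidneys used for the arrays is not analysed here.

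Each level below is the log2 of the background-subtracted spot intensity minus that of its array's 75th percentile, so that a level of 0 marks a probe at that percentile. Levels of different genes come from different probes and are not ranked against each other. A gene was called when its p-value from limma, adjusted over all 19593 genes and transcripts, was under 0.05. On each array 61.7% to 65.7% of probes were well above background and none was saturated. Keap1 checked the labels: its level was 1.77 to 1.92 in the 4 controls and 0.06 to 0.45 in the 4 NEKO kidneys, a fall by 1.63 ± 0.10 (log2, SE, limma adjusted p = 0.00458). Nqo1, a target of Nrf2, was at 1.24 to 2.46 in controls and 3.89 to 5.45 in NEKO kidneys (adjusted p = 0.0651). Kidney markers were present in both groups, with Slc34a1 of the proximal tubule at a mean of 7.00 in controls and 7.07 in NEKO kidneys, Umod of the thick ascending limb at 7.85 and 7.58 and Aqp2 of the collecting duct at 3.86 and 3.64. Sex coincided with the slide, each slide holding 2 NEKO and 2 control arrays, so their effects cannot be told apart.

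Of the prostaglandin genes, Ptgds stood lowest in NEKO kidneys relative to controls (4.00-fold), and Ptger3 was lower in NEKO males while NEKO females lay close to controls. The constitutive cyclooxygenase Ptgs1 and the prostaglandin E synthases Ptges and Ptges3 differed by 0.04, 0.14 and 0.13 (log2), and Ptgs2 could not be measured. None of the 8 tested genes was called by limma with sex as a covariate, against 0.225% of all genes and transcripts. At an unadjusted limma p under 0.05 there were 3 of the 8, Ptger4 higher and Ptger3 and Ptgds lower, where 18% of all genes and transcripts pass that mark. In a limma model that also allowed the effect of genotype to differ between the sexes, 2 of the 8, Ptgds and Ptger3, were called lower in NEKO kidneys when the effect was averaged over the sexes, against 2.63% of all. The median difference over the 8 genes was 0.08, beside a median of -0.03 over all genes and transcripts tested.

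**Figure D1:**
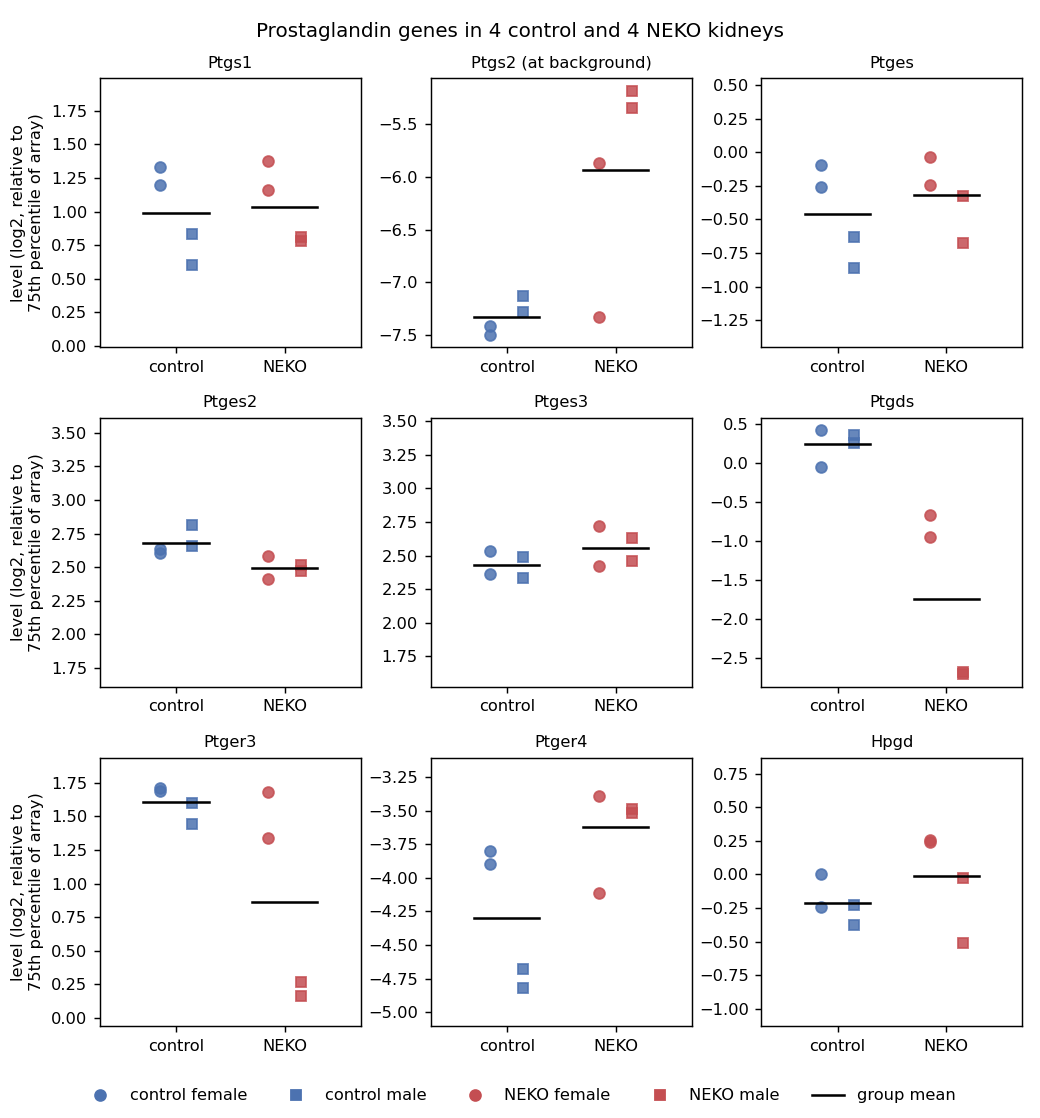
Level of each prostaglandin gene (log2 above the array's 75th percentile) in 4 control (blue) and 4 NEKO (red) kidneys, females as circles, males as squares and group means as bars; each panel has its own vertical scale. The 4 NEKO kidneys lie below all controls for Ptgds, for Ptger3 the 2 NEKO males lie apart at 0.27 and 0.16, and Ptgs2 was at background on all 8 arrays.

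Promoter sequences of 300 bases, from 250 bases before to 50 after the annotated start, were read from RefSeq (GRCm38.p6) for 9 of the 10 genes. Each was searched on both strands for the core of the antioxidant response element bound by Nrf2, TGACNNNGC. Of the 9 genes only Ptges3 held a match, while 12.4% of the 32851 promoter windows of this length did. The search also took 15 pathway genes described further on, those with groups that did not overlap or an unadjusted limma p under 0.05. Other pathway genes were not looked up singly. Of the 15, 14 had a window and 3 held a match (Pla2g7, Ptgir and Abcc4). Cbr3, with the largest difference among them, held none, nor did Nqo1, a target of Nrf2. The sequences of Ptgds and Ptger3 are shown because their levels differed most between the groups, and those of Ptges3 and of Pla2g7, a phospholipase described further on, as examples that hold the letters searched for. All are written 5′ to 3′ on the strand of the gene, with the match in capitals, which in both cases lies on the opposite strand and reads as the reverse complement.
Ptgds, chr2:25469700-25469999, minus strand: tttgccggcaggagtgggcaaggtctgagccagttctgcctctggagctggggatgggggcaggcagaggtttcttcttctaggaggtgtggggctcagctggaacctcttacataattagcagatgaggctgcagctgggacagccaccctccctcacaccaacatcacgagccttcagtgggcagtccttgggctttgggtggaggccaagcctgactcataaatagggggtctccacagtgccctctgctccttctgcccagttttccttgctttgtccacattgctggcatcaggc
Ptger3, chr3:157566626-157566925, plus strand: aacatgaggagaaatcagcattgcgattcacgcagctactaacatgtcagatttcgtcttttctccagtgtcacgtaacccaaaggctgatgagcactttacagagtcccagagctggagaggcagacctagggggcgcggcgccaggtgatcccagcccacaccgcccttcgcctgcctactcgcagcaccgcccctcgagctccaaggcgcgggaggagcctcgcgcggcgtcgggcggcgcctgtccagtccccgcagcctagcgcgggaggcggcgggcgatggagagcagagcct
Ptges3, chr10:128058732-128059031, plus strand: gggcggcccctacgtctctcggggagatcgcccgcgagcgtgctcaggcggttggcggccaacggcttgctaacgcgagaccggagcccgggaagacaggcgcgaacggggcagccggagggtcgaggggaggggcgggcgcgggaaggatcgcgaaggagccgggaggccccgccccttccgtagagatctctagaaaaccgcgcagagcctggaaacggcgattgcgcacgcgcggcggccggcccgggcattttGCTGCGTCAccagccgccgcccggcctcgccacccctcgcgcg
Pla2g7, chr17:43568201-43568500, plus strand: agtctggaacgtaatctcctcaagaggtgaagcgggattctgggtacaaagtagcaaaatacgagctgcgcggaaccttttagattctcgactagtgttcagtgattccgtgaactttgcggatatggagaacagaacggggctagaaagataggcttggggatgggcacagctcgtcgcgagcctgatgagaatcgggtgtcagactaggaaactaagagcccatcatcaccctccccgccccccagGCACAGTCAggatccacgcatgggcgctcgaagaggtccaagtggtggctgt
A match is a description of letters in these windows and not a measurement of binding, and a window without one lacks only these letters.

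The cyclooxygenases are the first committed step. Ptgs1, the constitutive form, was at 1.33 and 1.20 in control females, 0.60 and 0.83 in control males, 1.16 and 1.38 in NEKO females and 0.81 and 0.78 in NEKO males. The genotypes overlapped fully and differed by 0.04 ± 0.09 (log2, SE, limma adjusted p = 0.83). All 4 males lay below all 4 females, by 0.51 ± 0.09 on the log2 scale, with genotype in the model (limma adjusted p = 0.0566). The same order was seen for Ptges, by 0.47 ± 0.12 (adjusted p = 0.0946). Neither passed the threshold, which 0.786% of all genes and transcripts did between the sexes.

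Ptgs2, the inducible cyclooxygenase, which in the kidney is made by the macula densa and by medullary interstitial cells, has 2 probes, and neither was well above background on any of the 8 arrays. The brighter read -7.41, -7.50, -7.12 and -7.28 in the controls, -5.87 and -7.33 in NEKO females and -5.34 and -5.18 in NEKO males. The lowest level called well above background ranged from -5.68 to -5.19 over the arrays. The NEKO males therefore gave the highest readings of this probe at the edge of detection, and no fold is given because both groups were at background. Of the 3 genes listed as macula densa markers only Avpr1a could be tested, with Nos1 and Pappa2 at background. Avpr1a did not overlap between the groups, with a NEKO minus control difference of -0.87 ± 0.14 (log2, SE, limma adjusted p = 0.064). With the other 2 at background, Avpr1a alone does not show a change of the macula densa. Its part in the Ptgs2 readings was not tested.

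Downstream of the cyclooxygenases, the 3 prostaglandin E synthases had small differences. Ptges, the membrane enzyme that is induced together with Ptgs2, was at -0.46 ± 0.35 in controls and -0.32 ± 0.27 in NEKO kidneys (mean ± SD, n = 4), a difference of 0.14 ± 0.12 (SE, limma adjusted p = 0.54). Ptges3, the cytosolic synthase that is also the Hsp90 co-chaperone p23, was at 2.43 ± 0.10 in controls and 2.56 ± 0.14 in NEKO kidneys (difference 0.13 ± 0.10, limma adjusted p = 0.51), and its dimmer probe also overlapped between the groups, at 0.44 to 0.65 against 0.53 to 0.93.

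Ptges2 was at 2.61 and 2.63 in control females, 2.66 and 2.81 in control males, 2.41 and 2.58 in NEKO females and 2.47 and 2.52 in NEKO males. Every NEKO value was below every control value, although the highest NEKO value of 2.58 came close to the lowest control value of 2.61. The difference was -0.18 ± 0.08, or 1.13-fold lower (limma adjusted p = 0.28, exact permutation p = 0.0286, two-sided, the smallest that 4 against 4 allow). Ptges2 and Ptgds were the 2 of 8 genes whose groups did not overlap, where 9.27% of all genes and transcripts had groups that did not overlap.

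Ptgds, the lipocalin-type prostaglandin D synthase, was at 0.42 in the K1 female, -0.05 in the K1Cre female and 0.36 and 0.26 in the K1Cre males, against -0.95 and -0.67 in NEKO females and -2.68 and -2.72 in NEKO males. The controls lay close together, the NEKO females below them all and the NEKO males lower again. On average Ptgds was 4.00-fold lower in NEKO kidneys (log2 difference -2.00 ± 0.40, limma adjusted p = 0.0923, exact permutation p = 0.0286). By sex the difference was -0.99 ± 0.18 in females, 1.99-fold lower, and -3.01 ± 0.18 in males, 8.03-fold lower, and in that model the average over the sexes had a limma adjusted p of 0.00364. The sex by genotype interaction of -2.01 ± 0.26 had an adjusted p of 0.0906. In whole kidney RNA a loss of the cells that express a gene and a lower level per cell cannot be told apart.

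Hpgds, the other prostaglandin D synthase, which is made by haematopoietic cells, was near background. It read -4.93 to -4.47 in controls and -6.05 to -5.03 in NEKO kidneys. All 4 control arrays and 2 of 4 NEKO arrays had it well above background. The readings did not overlap, but the fitted difference of -0.72 ± 0.24 (limma adjusted p = 0.20) rests in part on NEKO values at background. That difference was -0.12 with normexp background correction. Of the 4 mast cell markers, Cpa3, Mcpt4 and Tpsb2 were at background on all 8 arrays and only Cma1 was measured. The summed level of the 5 measured macrophage markers was 1.76 to 2.12 in controls and 1.59 to 2.43 in NEKO kidneys, so the sums overlapped. None of the 5 was called, and single markers differed in direction. In males Lyz2, Itgam, Adgre1 and C1qa differed by 2.67, 1.30, 0.66 and 0.51, beside -0.67 for Csf1r, the brightest of the list.

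The measured prostaglandin E2 receptors, Ptger3 and Ptger4, had differences of opposite sign. Ptger3, the EP3 receptor, was at 1.71 and 1.69 in control females, 1.44 and 1.60 in control males, 1.34 and 1.68 in NEKO females and 0.27 and 0.16 in NEKO males. The NEKO females overlapped with controls and the NEKO males lay well below the other 6 kidneys. The difference was -0.75 ± 0.23 over both sexes (limma adjusted p = 0.187, exact permutation p = 0.0857), -0.19 ± 0.14 in females and -1.31 ± 0.14 in males, the last 2.47-fold lower. The average over the sexes passed in the model with the interaction (limma adjusted p = 0.0257), and the interaction itself, -1.12 ± 0.20, did not (unadjusted p = 0.00132, adjusted p = 0.13). A dimmer probe of Ptger3 was likewise lowest in the NEKO males, at -3.66 and -3.09 beside -2.32 to -1.82 in controls, while the NEKO females read -1.95 and -1.37.

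The thick ascending limb, the collecting duct and other tubule segments were followed by marker lists beside these values, since both Ptgds and Ptger3 are made by particular cells. None of the 5 thick ascending limb markers was called, all 5 had differences below 0, and their summed level was 8.32 to 8.54 in controls, 8.32 and 8.39 in NEKO females and 7.95 and 7.78 in NEKO males. The 8 principal cell markers summed to 5.92 to 6.22 in controls, 5.95 and 6.06 in NEKO females and 5.83 and 5.46 in NEKO males. None of them was called, 7 had differences below 0 and Avpr2 went the other way, by 0.26. In males Aqp4 and Hsd11b2 differed by -2.03 and -1.46, beside -0.24 for Aqp2, -0.17 for Aqp3 and 0.33 for Avpr2. The 5 intercalated cell markers summed to 5.15 to 5.58 in controls. In NEKO females their sums were 4.48 and 4.54, and in NEKO males 3.68 and 2.64. All 5 had differences below 0, none of them called. A sum mostly follows its brightest probes, here that of Slc26a4 (difference -2.07), while Foxi1 differed by -0.09. These 3 lists were lowest in the same 2 kidneys in which Ptger3 and Ptgds were lowest, and their part in those results was not tested. The sums of other tubule lists were not lowest there. In controls and in the NEKO males, the proximal tubule markers summed to 8.43 to 8.66 and to 8.55 and 8.71. Those of the distal convoluted tubule summed to 5.27 to 6.38 and to 5.43 and 5.69. The medullary osmolyte and urea genes summed to 5.24 to 5.82 and to 5.66 and 5.49. In each of these last 2 lists, however, 3 of 4 genes had differences below 0. In males Slc14a2, Slc6a12 and Slc5a3 differed by -4.28, -3.32 and -1.195, beside 0.23 for Slc6a6, the brightest. Slc12a3, Pvalb and Trpm6 differed by -0.91, -1.95 and -1.09 in males, beside 0.20 for Calb1, the brightest of the distal convoluted list. Slc6a12 was well above background on 2 of 4 NEKO arrays.

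Ptger4, the EP4 receptor, was at -3.90 and -3.80 in control females, -4.82 and -4.68 in control males, -4.11 and -3.39 in NEKO females and -3.48 and -3.52 in NEKO males. It was well above background on 7 of 8 arrays, all but 1 control male. The controls were split by sex, with both control males lowest of all 8, and the groups overlapped among the females. The difference was 0.68 ± 0.26 (limma adjusted p = 0.25, exact permutation p = 0.0857), made up of 0.10 ± 0.23 in females and 1.25 ± 0.23 in males, and the interaction had an adjusted p of 0.268. With normexp background correction the difference was 0.38. The highest Ptger4 level was that of a NEKO female (-3.39), whereas the sums of urothelial, fibroblast and neutrophil markers were highest in the NEKO males. The 5 urothelial markers summed to 0.17 to 1.50 in controls, 1.21 and 1.49 in NEKO females and 2.53 and 2.50 in NEKO males. In the same order, the 6 fibroblast markers summed to 4.10 to 5.04, 4.76 and 4.44, and 5.42 and 5.88. The 3 measured neutrophil markers summed to -2.16 to -0.92, -1.50 and -0.87, and 2.74 and 0.69. Of the urothelial markers 4 were higher, and Upk1a went the other way, by -0.71 over both sexes and -0.20 in males. Mpo, a neutrophil marker, differed by 0.05 over both sexes and 0.35 in males. The part of these markers in the Ptger4 values was not tested.

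Hpgd, which oxidises prostaglandins to inactive 15-keto forms, was at 0.00 and -0.24 in control females, -0.38 and -0.23 in control males, 0.25 and 0.24 in NEKO females and -0.51 and -0.03 in NEKO males. The groups overlapped, and the difference of 0.20 ± 0.14 had a limma adjusted p of 0.47. Its second probe gave 0.32. This was the gene among the 8 whose difference was larger in females (0.36 ± 0.18) than in males (0.03 ± 0.18). The other 7 had the larger difference, regardless of sign, in males, a share of 87.5% beside 59.3% of all genes and transcripts. For Ptgs1, Ptges, Ptges2 and Ptges3, however, the male minus female contrast was smaller than its SE (0.07 ± 0.19, 0.21 ± 0.23, -0.12 ± 0.16 and 0.02 ± 0.21).

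**Figure D2:**
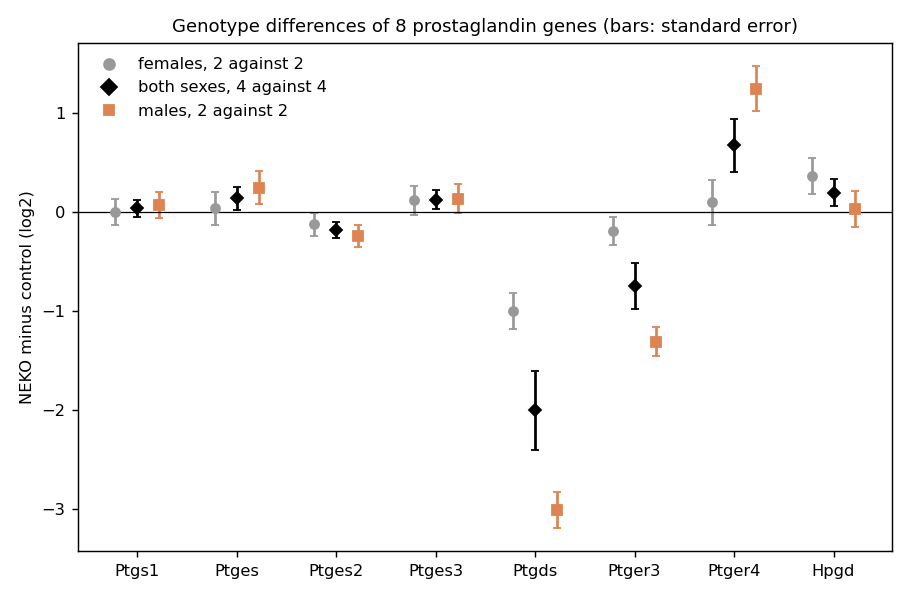
NEKO minus control difference (log2, vertical axis) of the 8 tested prostaglandin genes in females (2 against 2), in both sexes (4 against 4, with sex as a covariate) and in males (2 against 2); bars are standard errors from limma. Ptgds is at -0.99, -2.00 and -3.01, Ptger3 at -0.19, -0.75 and -1.31 and Ptger4 at 0.10, 0.68 and 1.25, and the other 5 genes lie between -0.24 and 0.36.

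None of the 8 genes had an interaction of sex and genotype that passed the adjusted threshold, as did 0.0153% of all genes and transcripts. At an unadjusted limma p under 0.05 there were 3 of 8, Ptgds, Ptger3 and Ptger4, against 10.5% of all. Each sex rests on 2 kidneys a group. The control females were a K1 and a K1Cre mouse, while both control males were K1Cre. These limma p-values set the interaction against the spread between mice of the same sex and group, moderated over all genes and transcripts. Among control females that spread includes any difference between K1 and K1Cre. That spread comes from this small set of mice.

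The remaining genes of arachidonate and prostanoid metabolism were taken from 5 lists with 51 genes, of which 49 had a named probe and 41 were tested. None was called by limma with sex as a covariate. At an unadjusted p under 0.05, 11 of the 41 were higher and 4 lower, beside 1444 higher and 2077 lower of all 19593 genes and transcripts (18%). The median difference over the 41 was 0.13, and -0.03 over all. In the model with the interaction, averaged over the sexes, 5 were called higher (Pla2g7, Ptgir, Abcc4, Ptgr1 and Cbr3) and 1 lower (Ptgfr), where 247 of all were called higher and 268 lower (2.63%).

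**Figure D3:**
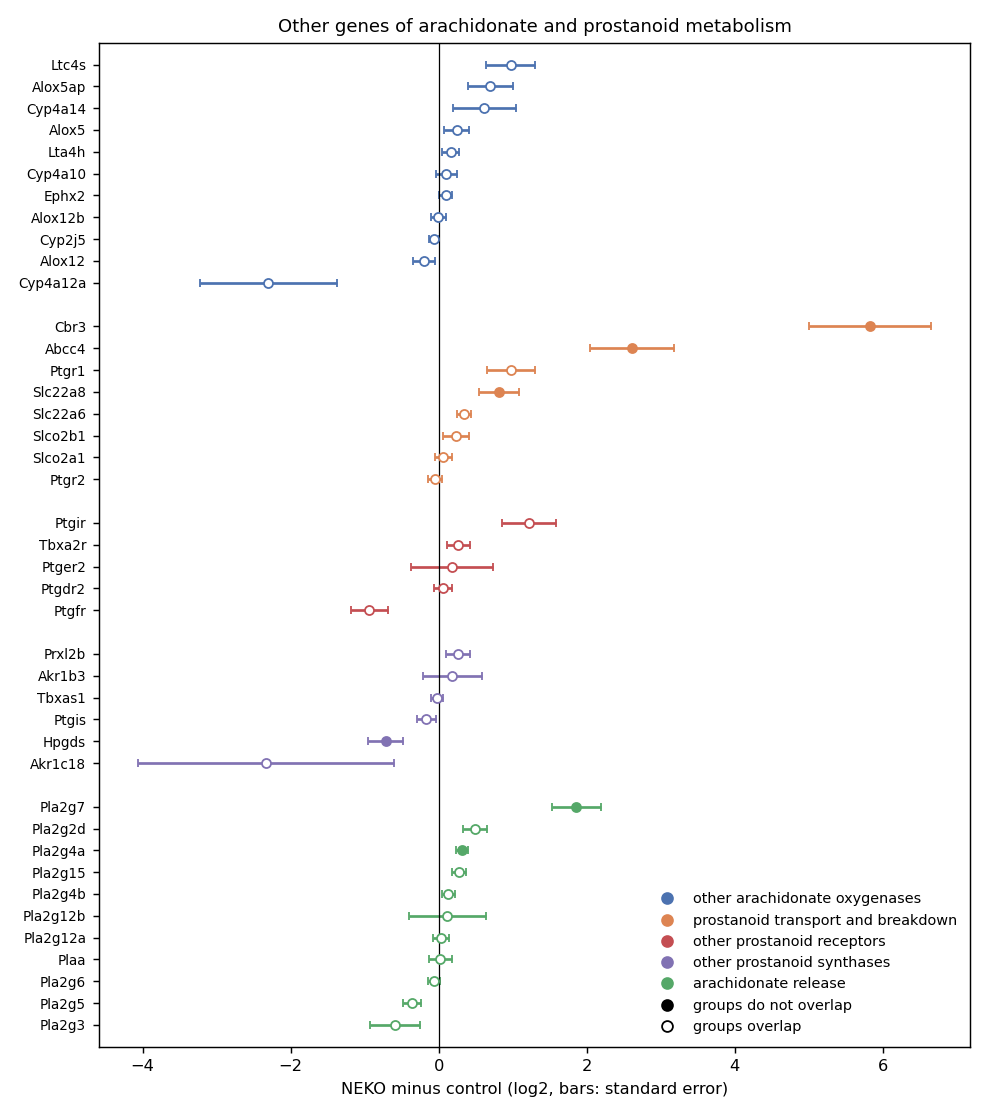
NEKO minus control difference (log2, horizontal axis) with its standard error for the 41 tested genes of 5 lists, coloured by list; filled points mark genes whose 4 NEKO and 4 control values do not overlap. Cbr3 is farthest to the right at 5.83, followed by Abcc4 at 2.61 and Pla2g7 at 1.86, while Akr1c18 has the widest bar.

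Prostanoid transport and breakdown held the highest values. Of its 8 genes, all tested, 5 were higher at an unadjusted p under 0.05 and none lower, and their median difference was 0.58; of all genes and transcripts 1444 of 19593 were higher and 2077 lower at that mark. Cbr3, a carbonyl reductase of a family that reduces prostaglandins and quinones, was at 2.17 and 2.14 in control females and -0.36 and 0.36 in control males, against 5.80 and 5.90 in NEKO females and 7.80 and 8.14 in NEKO males. The control males were the lowest and the NEKO males the highest, giving 3.70 in females, 7.96 in males and 5.83 ± 0.82 over both (56.9-fold, limma adjusted p = 0.0542, and 0.000153 when averaged over the sexes). Its interaction had an adjusted p of 0.058.

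Abcc4, which exports prostaglandins and cyclic nucleotides, was at 2.68 and 2.89 in control females, 0.68 and 2.36 in control males, 4.13 and 4.24 in NEKO females and 5.10 and 5.58 in NEKO males. The groups did not overlap, the difference was 2.61 ± 0.57 (6.12-fold, limma adjusted p = 0.11, and 0.027 averaged over the sexes), and a second probe gave 2.68. Ptgr1, which reduces 15-keto prostaglandins and inactivates leukotriene B4, was at 1.88 and 1.15 in control females and 1.77 and 1.72 in NEKO females, which overlapped, and at 2.15 and 2.19 in control males against 3.80 and 3.99 in NEKO males. Its difference was 0.98 ± 0.32 (limma adjusted p = 0.202, and 0.0424 averaged over the sexes).

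The organic anion transporters Slc22a6 and Slc22a8, which carry prostaglandins and many drugs across the basolateral membrane of the proximal tubule, had differences of 0.34 ± 0.09 and 0.82 ± 0.27 (limma adjusted p = 0.158 and 0.204). Slc22a8 did not overlap between the groups, at 2.49 to 3.78 in controls and 3.97 to 4.46 in NEKO kidneys, but its 2 other probes did overlap, with differences of 0.83 and 0.98. Without control replicate 4, the lowest of the 8, the difference was 0.54. Slc22a6 was higher in males than in females of both genotypes, by 1.03 ± 0.09 (limma adjusted p = 0.0171). Slco2a1, Slco2b1 and Ptgr2 made up the rest of the list, from -0.05 to 0.24. The summed level of 8 Nrf2 target genes, Nqo1 among them, was 7.57 to 8.12 in controls and 8.68 to 9.34 in NEKO kidneys, and did not overlap. That sum mostly follows its brightest probe, that of Gstm1 (difference 1.05). Of the 8 genes, 7 were higher and Hmox1 differed by -0.08. Singly, 4 did not overlap and 1, Txnrd1, was called, against 9.27% and 0.225% of all genes and transcripts.

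**Figure D4:**
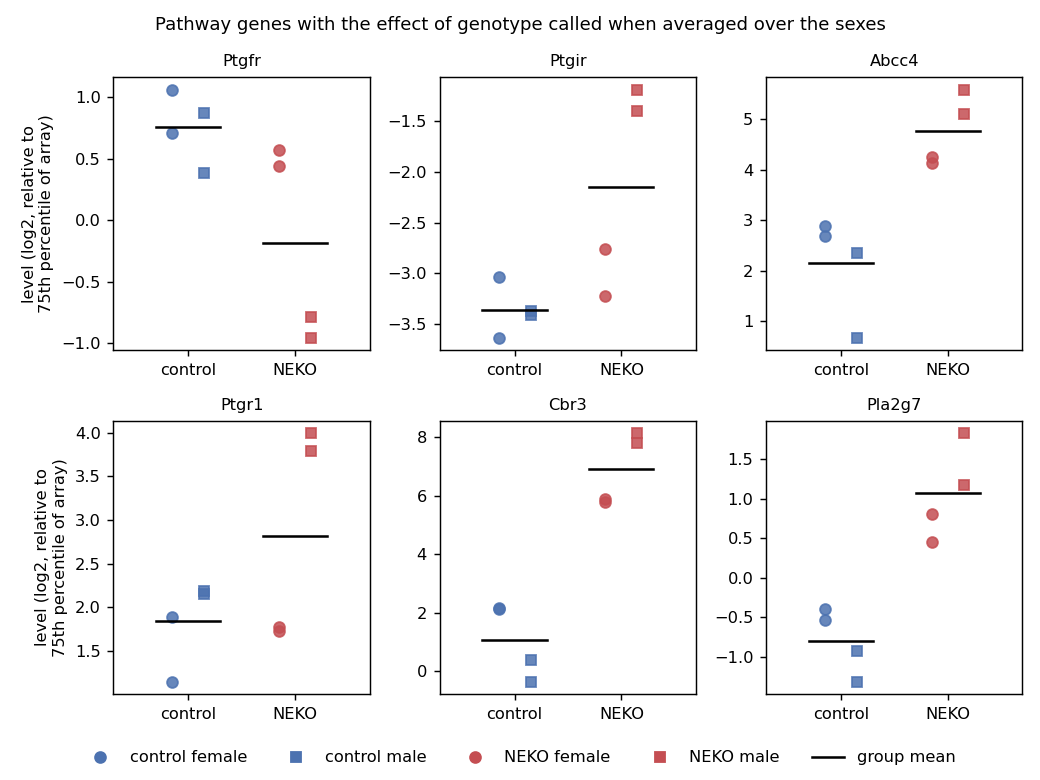
Level (log2 above the array's 75th percentile) of the 6 pathway genes called when the effect of genotype was averaged over the sexes, in 4 control (blue) and 4 NEKO (red) kidneys, females as circles, males as squares and group means as bars, each panel with its own vertical scale. Cbr3, Abcc4 and Pla2g7 do not overlap between the groups, whereas for Ptgfr, Ptgir and Ptgr1 the NEKO males stand apart.

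Among the other prostanoid receptors, 5 of 6 were tested, 1 higher and 1 lower at an unadjusted p under 0.05, which 18% of all genes and transcripts pass in either direction. Ptgfr, the prostaglandin F receptor, was at 1.06 and 0.71 in control females, 0.38 and 0.87 in control males, 0.44 and 0.57 in NEKO females and -0.95 and -0.79 in NEKO males. As for Ptger3, the NEKO males were lowest, and the difference was -0.38 in females, -1.50 in males and -0.94 ± 0.25 over both (limma adjusted p = 0.15, and 0.0326 averaged over the sexes). Ptgir, the prostacyclin receptor, was at -3.64 to -3.04 in controls, -2.76 and -3.23 in NEKO females and -1.40 and -1.19 in NEKO males (difference 1.22 ± 0.37, limma adjusted p = 0.181, and 0.028 averaged over the sexes). Its second, dimmer probe gave -0.12 with overlapping groups, so the probes of Ptgir disagreed.

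Ptger2, which encodes the EP2 receptor and was singled out after its values were seen, was well above background on 4 of 8 arrays, the same for both groups at 2 of 4. It read -4.50 and -5.71 in control females, -6.31 and -6.06 in NEKO females, -5.45 and -4.78 in control males and -3.90 and -3.45 in NEKO males. The NEKO females' readings lay under the lowest level called well above background on their arrays (-5.29 and -5.39). No difference by sex is therefore given in the text. Tbxa2r and Ptgdr2 had differences of 0.27 and 0.05, and Ptgdr was at background throughout.

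**Figure D5:**
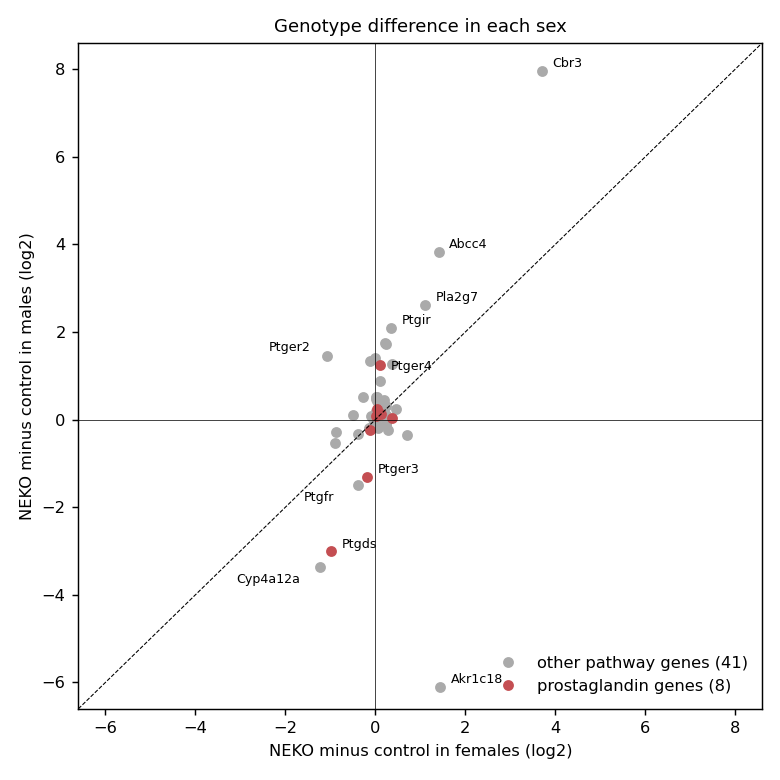
NEKO minus control difference (log2) in males (vertical axis) against females (horizontal axis) for the 8 prostaglandin genes (red) and the 41 other pathway genes (grey), with equal differences on the dashed line. Ptgds at -0.99 and -3.01 and Cbr3 at 3.70 and 7.96 lie farther from 0 in males, and Akr1c18 at 1.44 and -6.10 lies on opposite sides of 0. The point of Ptger2 rests on readings at background in the NEKO females.

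Arachidonate release was followed by 17 genes, of which 11 were tested, 4 higher and 1 lower at an unadjusted p under 0.05 (18% of all genes and transcripts in either direction), with a median of 0.11. Pla2g4a, the cytosolic phospholipase A2 that supplies the cyclooxygenases, was at -1.38 to -1.05 in controls and -0.95 to -0.84 in NEKO kidneys, groups that did not overlap over a difference of 0.31 ± 0.08 (1.24-fold, limma adjusted p = 0.145). Pla2g7 was at -0.54 and -0.40 in control females, -1.31 and -0.93 in control males, 0.45 and 0.81 in NEKO females and 1.17 and 1.82 in NEKO males, a difference of 1.86 ± 0.33 (3.62-fold, limma adjusted p = 0.0752, and 0.0094 averaged over the sexes). Despite its place in this list, Pla2g7 encodes a secreted enzyme known for hydrolysing platelet-activating factor. Pla2g2d (0.49 ± 0.17), Pla2g15 (0.27 ± 0.10) and Pla2g5 (-0.36 ± 0.12) overlapped between the groups, with limma adjusted p of 0.207, 0.228 and 0.207. Pla2g2d was well above background on only 2 of 4 control arrays, and normexp background correction gave 0.17.

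Of the other prostanoid synthases, 6 of 7 were tested and only Hpgds had an unadjusted p under 0.05, against 18% of all genes and transcripts. The prostacyclin synthase Ptgis was at a difference of -0.17 and the thromboxane synthase Tbxas1 at -0.02. Akr1c18, a hydroxysteroid dehydrogenase that also forms prostaglandin F2 alpha, was singled out after its values were seen: it read -0.32 and 4.00 in control females, 4.21 and 2.36 in NEKO females, 2.83 and 1.85 in control males and -2.77 and -4.76 in NEKO males. The females overlapped and the NEKO males were lowest, with a limma adjusted p of 0.497 for genotype and 0.26 for the interaction. The aldo-keto reductase family holds close paralogs, and whether this probe also detects them was not tested.

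The lipoxygenase and cytochrome P450 branches compete for the same substrate. Of 13 genes there, 11 were tested, 1 higher and 1 lower at an unadjusted p under 0.05, a share close to the 18% of all genes and transcripts. Ltc4s, the leukotriene C4 synthase, was at -1.76 to -1.15 in controls, -1.29 and -0.71 in NEKO females and 0.23 and 0.33 in NEKO males (difference 0.97 ± 0.33, limma adjusted p = 0.209). Cyp4a12a, which makes the vasoconstrictor 20-HETE in mice, was at 0.73 and -1.22 in control females, 3.97 and 0.51 in control males, -0.93 and -2.04 in NEKO females and -0.33 and -1.93 in NEKO males. One control male lay far above the other and the groups overlapped (difference -2.30 ± 0.93, limma adjusted p = 0.261; -1.40 without that male, control replicate 4). Near-identical Cyp4a genes may share this probe. Ephx2, the soluble epoxide hydrolase, and Cyp2j5, an arachidonate epoxygenase, were higher in males than in females, by 0.91 ± 0.09 and 0.52 ± 0.07 (limma adjusted p = 0.0186 and 0.0363), and differed by 0.09 and -0.07 between the genotypes.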

How the data were processed

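The 10 genes and all lists were chosen with earlier results of these data known. The authors deposited Agilent Feature Extraction output per array, in which the processed signal is an intensity with background subtracted, and a matrix of log2 values. Differences between arrays showed that matrix to hold the same values as used here, centred on each probe's median (100% of values within 0.01). The study's methods name an unpaired test with unequal variances for all its comparisons, and how the authors normalized the arrays is not given in the sources used here.

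Outlier spots were left out (73 to 172 of 43379 per array), spots of a probe averaged and each log2 processed signal reduced by the 75th percentile over its array's non-control probes. Probes well above background on 4 or more of 8 arrays and with 6 or more values were kept, and the brightest kept probe stood for its gene. Accessions named 26690 of 41174 probes, giving 18217 genes. Names and promoters came from RefSeq (GRCm38.p6), and were joined by name, since the arrays are annotated on mm9.

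Genotype was tested in limma 3.58.1 (R 4.3.3; lmFit, eBayes) with a term for sex, and p-values were adjusted by Benjamini-Hochberg over 19593 genes and transcripts. Their interaction was fitted in a second model, and single genes were compared by two-sided exact permutation. The comparison of males with females, from the sex term of the first model, was added after the data were seen. The number of arrays limits the precision. Named genes are Keap1, Nqo1, the 10 listed and, of the pathway lists, those called, not overlapping or at an unadjusted p under 0.05. Slco2a1, Slco2b1, Ptgr2, Tbxa2r, Ptgdr2, Ptgdr, Ptger2, Ptgis, Tbxas1, Akr1c18, Ephx2 and Cyp2j5 are named outside that rule, as are single genes of the marker lists. Cbr1 and Cyp2c44 had no named probe.

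Alternatives were normexp background correction (offset 50, on the median spot signal), quantile normalization, scaling to the median of detected probes, no filter on dim probes or one requiring detection on all 8 arrays, averaging a gene's kept probes, leaving out the sex term, eBayes with trend and robust, the methods' test with unequal variances, the interaction model, the deposited matrix, and leaving out each mouse.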

Additional observations from a re-analysis of the deposited data

Results flagged for a closer look

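Ltc4s in control replicate 4, a K1Cre male, lay far from the other controls: its level was -1.76, against -1.21, -1.21 and -1.15 in the others, a gap of 0.898 of the range of the group, above Dixon's critical value for 4 samples. It was the only one of 46 groups scanned to pass, and chance passes about 1 in 20 groups.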

How the results depend on the processing

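None of the 8 prostaglandin genes was called by limma (3 at an unadjusted p under 0.05), nor under any alternative other than these: the methods' t-test without adjustment called 2 lower (Ptgds, Ptges2), and the interaction model, averaged over the sexes, called 2 lower (Ptgds, Ptger3). Of the 41 pathway genes none was called (15 at an unadjusted p under 0.05), but 2 were with normexp background correction (Cbr3, Pla2g7), 1 without a sex term (Cbr3), 1 with eBayes with trend and robust (Cbr3), 5 by the methods' t-test without adjustment (Abcc4, Cbr3, Hpgds, Pla2g4a and Pla2g7, 4 higher and 1 lower) and 6 averaged over the sexes (5 higher, 1 lower). With Benjamini-Hochberg adjustment the methods' t-test called 0 of either. Leaving out each mouse in turn gave 0 calls throughout, and no interaction of a prostaglandin gene was called in any setting run. For Ptgds and Ptger3 the averaged difference equalled that of the main model, -2.00 and -0.75. Its SE was 0.13 and 0.10, against 0.40 and 0.23 in the main model. The interaction model takes the difference in effect between the sexes out of the residual spread. Why the other settings gave different calls was not tested.

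The difference of Ptgs1 turned to -0.0131 without control replicate 4, and ranged from -0.0131 to 0.0899 when each mouse was left out. No other difference of the 8 genes or of the 15 pathway genes named by the rule changed sign. That of Ptgds ranged from -2.30 to -1.63 and that of Ptger3 from -0.93 to -0.60 over all alternatives, with adjusted p from 0.00364 to 0.414 and from 0.0257 to 0.537. The median of all genes ranged from -0.04 to -0.01. No paired analysis was possible because the replicate numbers run from 1 to 8 over both groups and none is shared. Signal over background limits Ptgs2, Hpgds, Ptger2, Ptger4 and Pla2g2d.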
